A study of Mus musculus with 6 samples.

Results

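The DEAD-box and DEAH-box RNA helicases were described in Carmil3 knockout and wild type 4T1 cells. 4T1 is an established line of mouse mammary tumour cells, and Carmil3 encodes a regulator of actin capping. Members were all rows of the deposited table whose mouse symbol begins with Ddx or Dhx followed by a digit, leaving out Ddx58 and Dhx58, which encode innate sensors of foreign RNA. This gave 48 members of 23644 genes, 32 with a Ddx symbol and 16 with a Dhx symbol. They were chosen by symbol with no threshold on any value, but with earlier results of the same comparison known, so their values are given as a description of a family and their counts are not set against chance. One member, Dhx58os, is an antisense RNA that lies opposite Dhx58 and encodes no helicase; it was kept because the symbol rule includes it.

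The groups were 3 Carmil3-KO libraries, from Carmil3 knockout 4T1 cells grown as clones of single cells, and 3 WT libraries, from wild type 4T1 control cells. Both groups were kept in the same serum-containing medium, and no other allele or agent is named. Nothing in the labels gives the method of knockout, the number of clones behind the libraries, a separate culture for each library, or any cloning of the control cells. Effects of the knockout and of growth from a single cell therefore cannot be told apart, and the p-values measure the spread between these libraries, which may be technical.

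DEAD-box and DEAH-box proteins use ATP to open RNA duplexes or to strip proteins from RNA, and are named after amino acids of a conserved ATPase motif. DEAD-box proteins mostly pry short duplexes apart locally, whereas DEAH-box proteins move along a strand. In growing cells they act at nearly every step of an RNA's life: ribosome assembly in the nucleolus, splicing, export through nuclear pores, translation and decay.

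Values are FPKM, reads scaled to exon length and to the reads of the library, so levels can be compared between genes. Read totals, worked out from the steps between low values, lay between 18139100 and 19046745 in Carmil3-KO libraries and between 17779104 and 18719076 in WT libraries. Carmil3 itself, the targeted gene (chromosome 14), was listed at 0, 0.0118 and 0.0241 FPKM in Carmil3-KO libraries and at 0.0360, 0.0246 and 0.0117 FPKM in WT libraries, at most 4 reads, so its level does not check the labels. On the second principal component of all tested genes Carmil3-KO replicate 3 lay at -15.55 and the other Carmil3-KO libraries at 6.73 and 9.56, so member counts are also given without it. Summed epithelial markers (6 of 7 in the table, with Esr1 under 1 FPKM) lay at 428 to 472 FPKM in Carmil3-KO and 984 to 1070 FPKM in WT libraries. Of these markers, Krt8 averaged 217 ± 9.25 FPKM in Carmil3-KO and 470 ± 19.6 FPKM in WT cells, and Epcam 0.0875 ± 0.0544 FPKM in Carmil3-KO and 19.7 ± 0.0502 FPKM in WT cells (SD, n = 3 each), so Epcam was nearly absent from the knockout cells. Summed markers of leukocytes (4 of 6 in the table) lay at 0.948 to 1.42 FPKM in Carmil3-KO and 0.737 to 1.21 FPKM in WT libraries, and those of endothelium (3 of 4) at 0.0434 to 0.0682 FPKM in Carmil3-KO and 0.0299 to 0.0572 FPKM in WT libraries. The erythroid marker in the table, Alas2 (1 of 3), lay at 0.252 to 0.292 FPKM in Carmil3-KO and 0.281 to 0.412 FPKM in WT libraries. Summed fibroblast markers (4 of 5) were higher, at 17.8 to 18.3 FPKM in Carmil3-KO and 11.4 to 12 FPKM in WT libraries, with Col1a2 and Dcn under 1 FPKM in every library. No marker in the table was at 0 in all 6 libraries, and the part of these marker levels in the results on helicases was not tested. In bulk RNA, fewer cells that express a gene and less of its RNA per cell cannot be told apart.

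RefSeq promoter entries (GRCm38.p6) matched 42 of the 48 members. In the 250 bases before the start, the ETS-family core CCGGAAG, read on both strands, stood in at least 1 entry of 16 of these 42 members (38.1%), of 17.5% of the tested genes with an entry, and in 6.91% of all promoter entries. By call in the knockout comparison described below, these were 1 of the 3 higher members, 4 of the 14 lower members and 11 of the 24 members not called that have an entry, so the motif was found in each class. The 5 stretches shown, of a higher member, a lower member and 3 members not called, were picked because they hold the motif. Each has 120 bases, within the 250 before the RefSeq start, that lie in no exon of the GENCODE M21 annotation. The stretch of Dhx36 ends 16 bases before the start and that of Ddx17 109 bases before it. Those of the 3 members not called end at the start. Each stretch is printed in the direction of its gene and has the motif in capitals. In the other lower members with the motif, Ddx1, Ddx54 and Dhx37, no such stretch held it, so none is printed.
Dhx36, higher, chr3:62507005-62507124, minus strand: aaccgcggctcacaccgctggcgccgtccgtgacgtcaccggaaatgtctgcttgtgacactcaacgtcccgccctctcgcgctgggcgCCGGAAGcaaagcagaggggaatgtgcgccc
Ddx17, lower, chr15:79546851-79546970, minus strand: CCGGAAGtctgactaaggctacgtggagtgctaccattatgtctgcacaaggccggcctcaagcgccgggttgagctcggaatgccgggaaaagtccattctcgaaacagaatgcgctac
Ddx39b, not called, chr17:35241626-35241745, plus strand: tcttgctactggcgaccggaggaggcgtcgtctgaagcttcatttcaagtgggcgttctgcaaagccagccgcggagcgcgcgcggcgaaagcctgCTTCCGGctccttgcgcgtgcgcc
Dhx9, not called, chr1:153487661-153487780, minus strand: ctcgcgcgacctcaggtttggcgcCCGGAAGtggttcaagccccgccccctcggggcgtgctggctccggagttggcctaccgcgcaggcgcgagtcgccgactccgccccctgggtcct
Ddx50, not called, chr10:62651219-62651338, minus strand: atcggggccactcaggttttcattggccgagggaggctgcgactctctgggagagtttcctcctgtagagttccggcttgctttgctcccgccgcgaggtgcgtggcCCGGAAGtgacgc
Other motifs were searched in the same way. The CCAAT box (CCAAT) stood in 18 of the 42 members, 42.9%, and in 41.1% of tested genes, the E-box CACGTG in 5 members, 11.9%, and 10.3% of tested genes, and TATAAA in 3 members, 7.14%, and 7.25% of tested genes. The cyclic AMP response element TGACGTCA stood in 4 members, 9.52%, and 3.30% of tested genes, the GC box GGGGCGGG in 6 members, 14.3%, and 33.7% of tested genes, and AAGATGGC in 0 members and 2.58% of tested genes. In all promoter entries the shares were 33.8% for CCAAT, 6.02% for CACGTG, 12.4% for TATAAA, 1.55% for TGACGTCA, 15% for GGGGCGGG and 1.56% for AAGATGGC. A match describes letters in a window and shows no binding, and the end of CCGGAAG is also the beginning of AAGATGGC.

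The helicase genes were expressed almost throughout. Of the 48 members 46 reached 1 FPKM in 3 or more libraries, the filter for testing, and 33 of those lay above the median level of all tested genes, 8.45 FPKM; the median of the 46 was 16.1 FPKM. The highest was Ddx5, a transcription and splicing coregulator that also works with Drosha on microRNA precursors, at 231, 239 and 239 FPKM in Carmil3-KO and 229, 241 and 220 FPKM in WT libraries. Its paralog Ddx17 followed, then Ddx3x, a helicase of translation initiation, and these were the 3 members above 100 FPKM. The next levels, averaged over all 6 libraries, belonged to the nucleolar helicases Ddx21 (62.3 FPKM) and Ddx18 (58.8 FPKM), then Ddx39b (55.5 FPKM), Dhx9 (54.5 FPKM), Dhx15 (51.9 FPKM), Ddx1 (50.1 FPKM) and Ddx42 (45.4 FPKM). These neighbours in the order differ by less than the spread within their groups in several cases: Ddx39b and Dhx9, for example, averaged 54.0 ± 1.74 and 54.0 ± 4.33 FPKM in WT cells (SD, n = 3). At the low end were the tested genes Dhx34, a nonsense-mediated decay factor, at 2.59 FPKM and Ddx55 at 4.46 FPKM over the 6 libraries. Below the filter were Ddx60, an interferon-induced gene, with 0.297 ± 0.0361 FPKM in Carmil3-KO and 0.286 ± 0.0560 FPKM in WT cells (SD, n = 3 each), and Dhx58os, with at most 2 reads in any library. Tested members had between 159 reads (Ddx28) and 34019 reads (Ddx17) in a library.

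**Figure D1:**
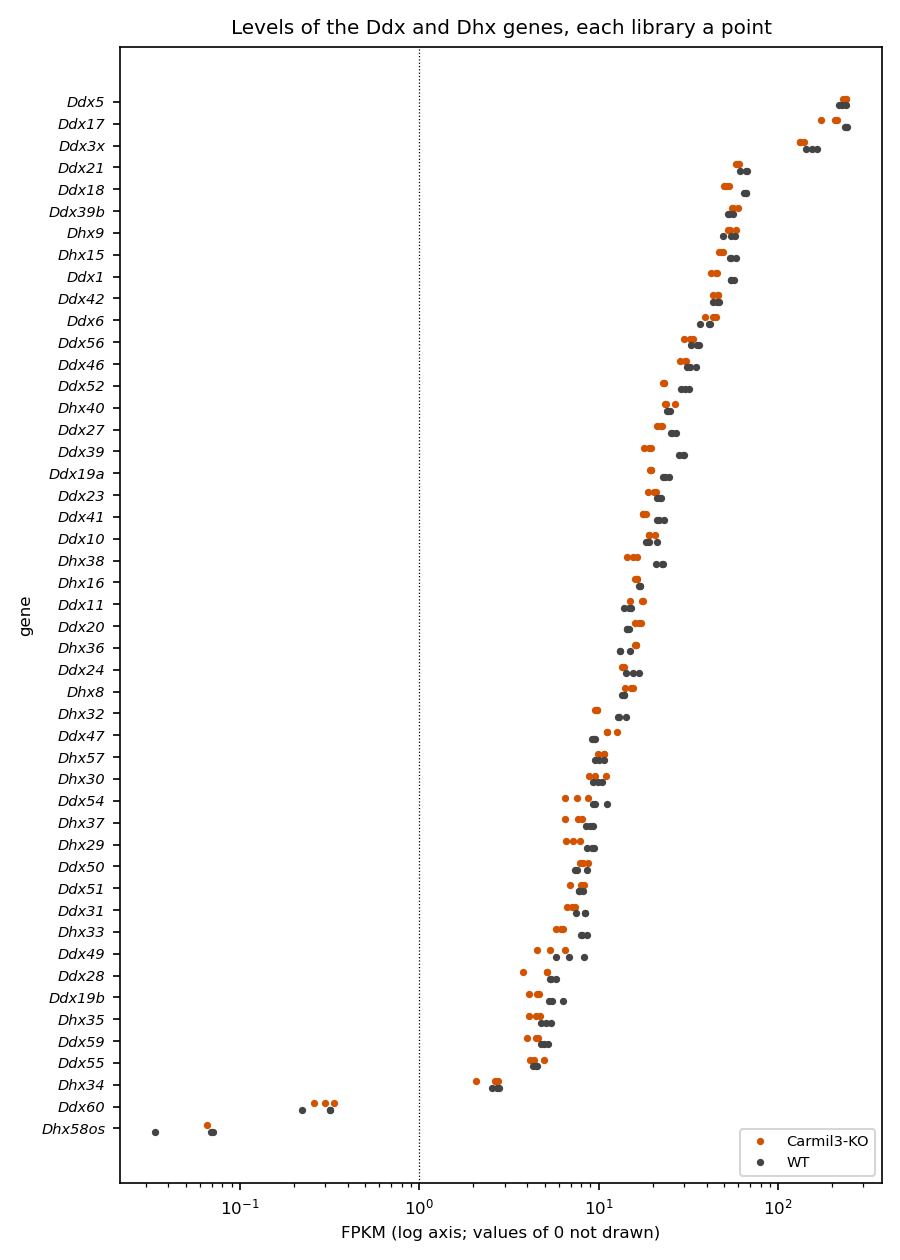
FPKM of the 48 members in each library on a log axis, ordered by the mean of the 6 libraries, Carmil3-KO libraries in orange and WT libraries in dark grey; the dotted line marks 1 FPKM and values of 0 are not drawn. Ddx5, Ddx17 and Ddx3x stand above 100 FPKM, and Ddx60 and Dhx58os lie below 1 FPKM.

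Across the family, helicase transcripts were more often lower than higher in Carmil3-KO cells, by small amounts. Of 46 tested members 16 fell and 3 rose, while 27 missed the threshold (limma on log2(FPKM + 1), Benjamini-Hochberg adjusted p under 0.05 over all 11171 genes tested). The fallen members were 34.8% of those tested, where 18.7% of all tested genes fell; the risen members were 6.52%, where 16.9% of all tested genes rose. The median log2 change of the members was -0.15, that of all tested genes -0.01, and 32 members lay below 0 and 14 above. Every Carmil3-KO library lay below every WT library for 26 members (56.5%; 26.4% of all tested genes) and above every WT library for 4 (8.70%; 24.2% of all tested genes). Log2 changes lay between -0.60 for Ddx39 and 0.28 for Ddx47. Tested against a 1.5-fold change 0 members passed in either direction with limma, and 0 at an unadjusted p under 0.05, where 1.06% of all tested genes were higher and 1.73% lower. Without Carmil3-KO replicate 3, 14 members fell and 5 rose, where 19.9% of all tested genes fell and 18.3% rose. The count of risen members was 0 without WT replicate 1, where 1182 of all 11171 genes rose. At an unadjusted p under 0.05 by limma it was 4 there, and the share of all genes at that threshold was not counted. It was 1 without Carmil3-KO replicate 1 or WT replicate 3, where 1383 and 1568 of all 11171 genes rose. By limma-voom on the recovered reads 17 members fell and 3 rose, where 2250 of all 11161 genes tested fell and 2022 rose.

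**Figure D2:**
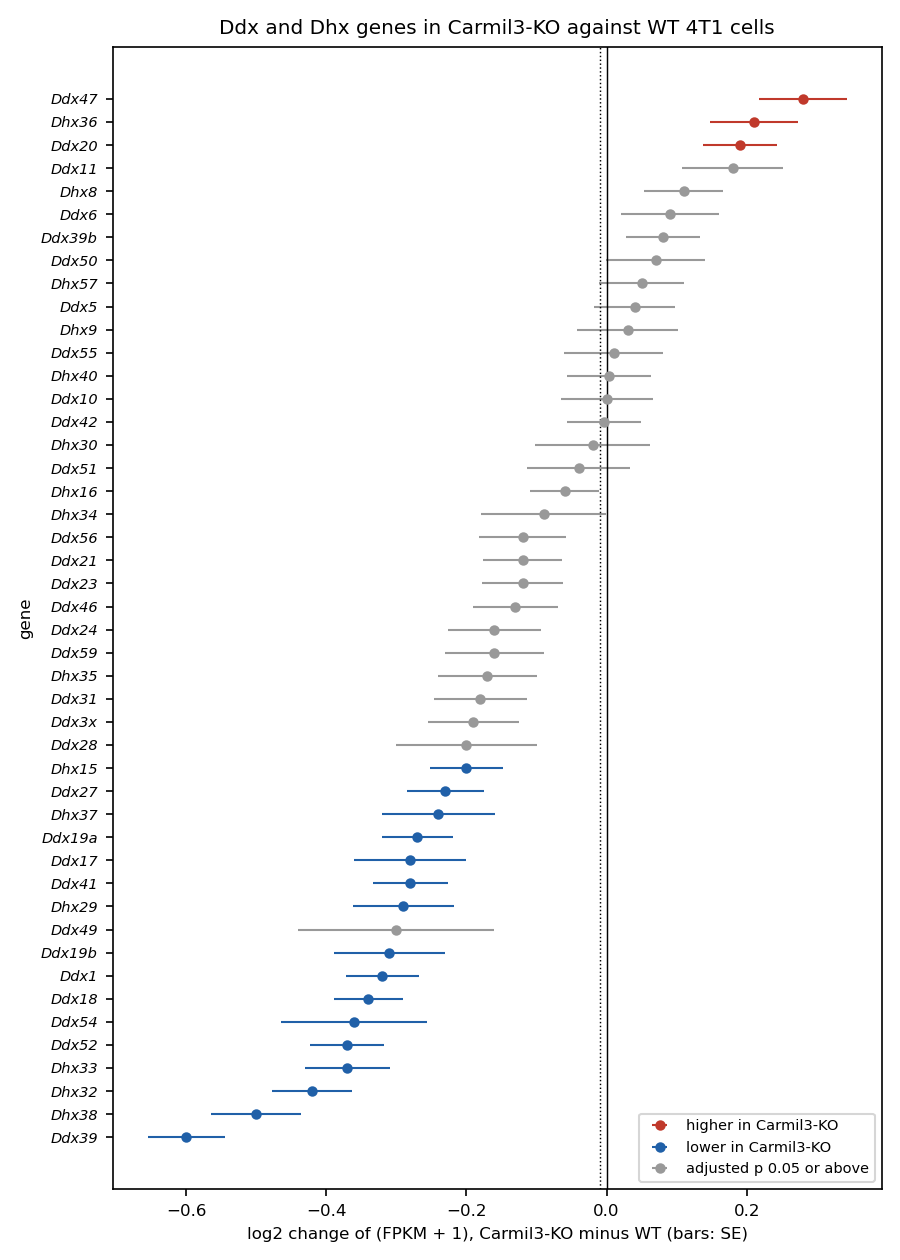
Log2 change of (FPKM + 1), Carmil3-KO minus WT, for the 46 tested members with its standard error, coloured by call at an adjusted p of 0.05; the dotted line marks the median of all tested genes, -0.01. The 16 lower members reach from Dhx15 to Ddx39, and the 3 higher ones are Ddx20, Dhx36 and Ddx47.

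The 3 members grouped under mRNA export, Ddx39, Ddx19a and Ddx19b, fell, where 18.7% of all tested genes fell. All 3 lie on chromosome 8, where 45.8% of 611 other tested genes fell. Ddx39b, which also acts in export, was counted under the spliceosome and did not pass. After centring on neighbouring genes, described further on, 1 of the 3, Ddx39, still passed. Ddx39, a helicase of the complex that loads export factors onto spliced mRNA (ENSMUSG00000005481, chromosome 8, 83715177 to 83726892, plus strand, GRCm38), measured 19.2, 17.9 and 19.5 FPKM in Carmil3-KO and 29.6, 28.1 and 29.8 FPKM in WT libraries. Every knockout library lay far below every control library. This was the largest change among the members, a log2 change of -0.60 with a standard error of 0.055 and a limma Benjamini-Hochberg adjusted p of 7.98e-05, and it was called under every alternative except the test against a 1.5-fold change. Opposite-strand exons of Adgre5, at 1.41 FPKM, overlap 17.4% of the exon bases of Ddx39. Ddx19a, which with Gle1 remodels mRNA-protein particles at the nuclear pore, measured 19.5, 19.6 and 19.3 FPKM in Carmil3-KO and 23.5, 24.7 and 23.0 FPKM in WT libraries (log2 change -0.27, limma adjusted p = 0.0042). Its neighbour and paralog Ddx19b measured 4.68, 4.51 and 4.07 FPKM in Carmil3-KO and 5.50, 5.30 and 6.32 FPKM in WT libraries (log2 change -0.31, limma adjusted p = 0.0173), a call lost without the expression filter, without WT replicate 3 and after centring, which also ended the call on Ddx19a (limma adjusted p = 0.694 for Ddx19b and 0.859 for Ddx19a). Of the 50-base stretches in Ddx19a transcripts 28.1% also occur in Ddx19b, so reads may be split between them and their single values are uncertain.

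Ddx39b and Ddx5, close paralogs of the fallen genes Ddx39 and Ddx17, did not pass the test. Ddx39b, a close relative of Ddx39 that acts in spliceosome assembly as well as export, measured 59.6, 55.9 and 55.7 FPKM in Carmil3-KO and 52.6, 53.5 and 55.9 FPKM in WT libraries, with overlapping groups (log2 change 0.08, 95% interval -0.04 to 0.20, limma adjusted p = 0.281). The ratio of Ddx39 to Ddx39b was 0.331 ± 0.0164 in Carmil3-KO and 0.540 ± 0.0201 in WT cells (SD, n = 3 each). For Ddx17, which shares targets with Ddx5, the values were 208, 213 and 175 FPKM in Carmil3-KO and 241, 244 and 238 FPKM in WT libraries. Carmil3-KO replicate 3 was the lowest; the log2 change was -0.28 with a limma adjusted p of 0.0245 and was -0.19 without that library. The call on Ddx17 ended when any WT library was left out, without the filter, with quantile normalization and with centring on neighbours. The ratio of Ddx17 to Ddx5 was 0.842 ± 0.0945 in Carmil3-KO and 1.05 ± 0.0342 in WT cells (SD, n = 3 each), with Ddx5 at a log2 change of 0.04 (95% interval -0.09 to 0.17). In a pair where neither gene passed, Ddx50, the nucleolar paralog of Ddx21, measured 7.91, 8.15 and 8.73 FPKM in Carmil3-KO and 7.57, 8.62 and 7.37 FPKM in WT libraries. The ratio of Ddx21 to Ddx50 was 7.22 ± 0.485 in Carmil3-KO and 8.30 ± 0.455 in WT cells, and that of Ddx19a to Ddx19b 4.42 ± 0.295 in Carmil3-KO and 4.19 ± 0.518 in WT cells (SD, n = 3 each). Over these 4 pairs, two-sided exact permutation tests of the log2 ratio gave p = 0.1, the smallest that 3 against 3 libraries allow, for the first 3 pairs and p = 0.6 for Ddx19a to Ddx19b; adjusted over the 4 pairs these were 0.133 and 0.6.

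**Figure D3:**
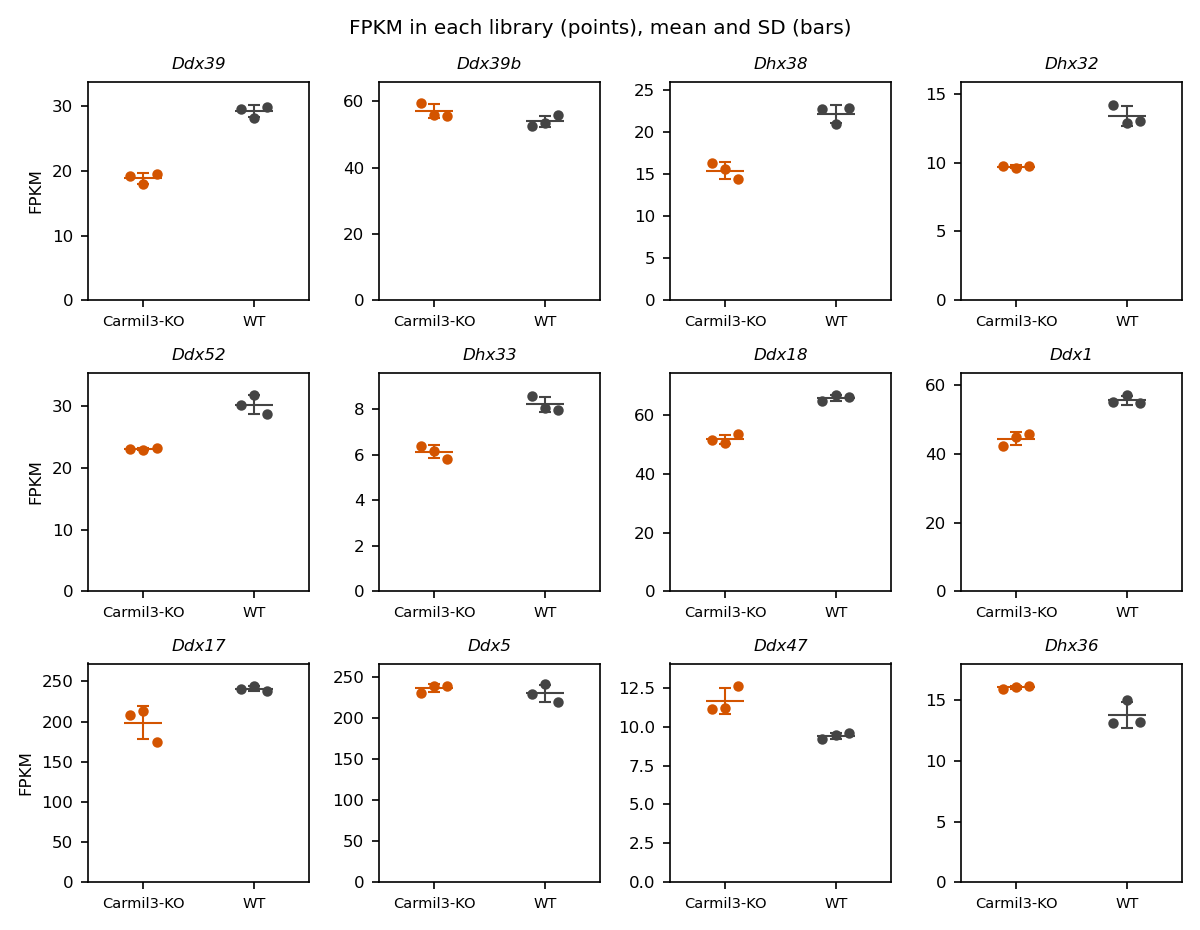
FPKM of 12 members in each library, with Carmil3-KO at left and WT at right in each panel, points for libraries and bars for the mean and SD. The groups do not overlap for Ddx39, Dhx38, Dhx32, Ddx52, Dhx33, Ddx18, Ddx1, Ddx17, Ddx47 and Dhx36, and they overlap for the paralogs Ddx39b and Ddx5.

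Of 16 helicases of ribosome biogenesis 6 fell, 1 rose and 9 did not pass, where 18.7% of all tested genes fell and 16.9% rose, and whether the role differs from other genes was not tested. Their median log2 change was -0.17. The count of fallen members was 3 without Carmil3-KO replicate 2, without WT replicate 1 or after centring on neighbours. Over all genes 1621 of 11171, 1358 of 11171 and 1511 of 11166 fell under these settings. Ddx52, the relative of yeast Rok1 in small-subunit assembly, measured 23.1, 22.9 and 23.3 FPKM in Carmil3-KO and 30.2, 31.8 and 28.8 FPKM in WT libraries (log2 change -0.37, limma adjusted p = 0.00101). Dhx33, which takes part in ribosomal RNA synthesis, measured 6.37, 6.17 and 5.81 FPKM in Carmil3-KO and 8.59, 8.05 and 7.97 FPKM in WT libraries (log2 change -0.37, limma adjusted p = 0.00199). The groups stood apart for both genes, and both were called under every alternative except the test against a 1.5-fold change. Ddx18, the relative of yeast Has1, measured 51.4, 50.3 and 53.4 FPKM in Carmil3-KO and 64.7, 66.6 and 66.1 FPKM in WT libraries (log2 change -0.34, limma adjusted p = 0.00104). Of its 50-base stretches 51.4% also occur in the transcript of Gm16433, which is listed at 0.173 FPKM. Ddx27 fell to 22.0 ± 0.828 FPKM in Carmil3-KO, against 26.0 ± 0.964 FPKM in WT cells (log2 change -0.23, limma adjusted p = 0.0119), a call lost without Carmil3-KO replicate 2 or WT replicate 1.

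The calls on Ddx54 and Dhx37 in this role were lost under more of the alternatives. Ddx54 measured 8.75, 7.59 and 6.48 FPKM in Carmil3-KO and 9.60, 9.35 and 11.2 FPKM in WT libraries (log2 change -0.36, limma adjusted p = 0.0258). Dhx37, the relative of yeast Dhr1, measured 8.11, 7.68 and 6.51 FPKM in Carmil3-KO and 8.92, 8.47 and 9.33 FPKM in WT libraries (log2 change -0.24, limma adjusted p = 0.0499). Carmil3-KO replicate 3 was the lowest library for both, and without it the limma adjusted p was 0.0564 for Ddx54 and 0.0768 for Dhx37. The call on Ddx54 was lost under 7 alternatives and that on Dhx37 under 11. The member that rose was Ddx47, the relative of yeast Rrp3, with 11.1, 11.2 and 12.6 FPKM in Carmil3-KO and 9.20, 9.49 and 9.56 FPKM in WT libraries (log2 change 0.28, limma adjusted p = 0.0101); the call was lost without WT replicate 1 and after centring on neighbours. Ddx49, with the largest standard error of the tested members, measured 6.49, 4.56 and 5.33 FPKM in Carmil3-KO and 6.84, 5.80 and 8.30 FPKM in WT libraries, and its log2 change of -0.30 (95% interval -0.63 to 0.02) did not pass. Exons of the opposite-strand gene Homer3, at 4.88 FPKM, overlap 29.8% of its exon bases. Ddx21, which couples ribosomal gene transcription to processing, measured 59.7, 60.7 and 58.1 FPKM in Carmil3-KO and 66.2, 67.6 and 61.3 FPKM in WT libraries, groups that did not overlap, and did not pass (adjusted p = 0.113 by limma). The other 7 not called, Ddx10, Ddx24, Ddx31, Ddx50, Ddx51, Ddx55 and Ddx56, had log2 changes between -0.18 for Ddx31 and 0.07 for Ddx50.

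Among 10 spliceosomal helicases 3 fell, 0 rose and 7 did not pass, with a median log2 change of -0.12, where 18.7% of all tested genes fell and 16.9% rose. Dhx38, the relative of yeast Prp16 that drives the second catalytic step of splicing, measured 16.3, 15.6 and 14.4 FPKM in Carmil3-KO and 22.7, 20.9 and 22.8 FPKM in WT libraries. No knockout library reached the lowest control library, and the log2 change was -0.50 with a standard error of 0.064 and a limma adjusted p of 0.000572. Ddx41 measured 17.8, 17.8 and 18.4 FPKM in Carmil3-KO and 21.8, 21.3 and 23.1 FPKM in WT libraries (log2 change -0.28, limma adjusted p = 0.00444). Both were called under every alternative except the test against a 1.5-fold change. Dhx15, which takes spliceosomes apart, measured 47.1, 48.2 and 49.6 FPKM in Carmil3-KO and 54.6, 58.1 and 53.9 FPKM in WT libraries (log2 change -0.20, limma adjusted p = 0.0198), a call lost without Carmil3-KO replicate 1 or 2 or WT replicate 1 or 2. Of the 7 that did not pass, Dhx35, Ddx46, Ddx23 and Dhx16 had every knockout library below every control library, as 26.4% of all tested genes did. Dhx8 had every knockout library above, as 24.2% of all tested genes did. The log2 changes of Dhx35, Ddx46 and Ddx23 were -0.17, -0.13 and -0.12 (limma adjusted p = 0.091, 0.127 and 0.135). Dhx16, the relative of Prp2 of the first catalytic step, averaged 16.2 ± 0.207 FPKM in Carmil3-KO and 17.0 ± 0.138 FPKM in WT cells (adjusted p = 0.356, limma, n = 3 each). Dhx8, the relative of Prp22 that releases the spliced mRNA, measured 15.6, 15.2 and 14.1 FPKM in Carmil3-KO and 13.9, 13.9 and 13.6 FPKM in WT libraries (adjusted p = 0.174, limma; 0.0404 without Carmil3-KO replicate 3). Ddx42, of early spliceosome assembly, measured 46.2, 46.2 and 43.7 FPKM in Carmil3-KO and 45.5, 47.2 and 43.7 FPKM in WT libraries. By the 95% intervals, the log2 change lay between -0.17 and 0.05 for Dhx16 and between -0.02 and 0.23 for Dhx8.

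In translation, decay and RNA granules 2 of 7 members fell, 1 rose and 4 did not pass, where 18.7% of all tested genes fell and 16.9% rose. Ddx1, a member of the tRNA ligase complex, measured 42.4, 45.1 and 45.9 FPKM in Carmil3-KO and 55.0, 57.2 and 54.8 FPKM in WT libraries (log2 change -0.32, limma adjusted p = 0.00205). Dhx29, which helps ribosomes scan structured leaders, measured 7.21, 7.89 and 6.56 FPKM in Carmil3-KO and 8.65, 9.14 and 9.39 FPKM in WT libraries (log2 change -0.29, limma adjusted p = 0.0141). In both genes every knockout library lay below every control library. Dhx36, which unwinds G-quadruplexes, rose to 15.9, 16.1 and 16.2 FPKM in Carmil3-KO, against 13.1, 15 and 13.2 FPKM in WT libraries (log2 change 0.21, limma adjusted p = 0.0306). That call was lost without Carmil3-KO replicate 1 or 2, WT replicate 1 or 3, the expression filter, or after centring on neighbours. Ddx3x measured 133, 139 and 132 FPKM in Carmil3-KO and 154, 165 and 143 FPKM in WT libraries, groups that did not overlap, with a log2 change of -0.19 that just missed the threshold (limma adjusted p = 0.0516); it passed with a filter of 5 FPKM (0.0456), with limma-voom (0.0313) and without WT replicate 3 (0.0313). Ddx6, the helicase of mRNA decay and P-bodies, measured 43.3, 45.2 and 39.4 FPKM in Carmil3-KO and 41.1, 41.8 and 37.0 FPKM in WT libraries, with overlapping groups (adjusted p = 0.348, limma). Dhx34 and Dhx57 had log2 changes of -0.09 and 0.05 and did not pass.

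Among the remaining members, Dhx32 fell and Ddx20 rose. Dhx32 measured 9.75, 9.57 and 9.78 FPKM in Carmil3-KO and 14.2, 12.9 and 13.0 FPKM in WT libraries, the third largest change of the family (log2 change -0.42, limma adjusted p = 0.000745), called under every alternative except the test against a 1.5-fold change. Ddx20, the gemin subunit of the SMN complex that assembles spliceosomal particles, measured 16.9, 15.9 and 17.2 FPKM in Carmil3-KO and 14.8, 14.4 and 14.5 FPKM in WT libraries (log2 change 0.19, limma adjusted p = 0.0264). The call on Ddx20 was lost without Carmil3-KO replicate 1, without any WT library, and after centring on neighbours. Dhx9, also called RNA helicase A, measured 53.8, 58.7 and 52.7 FPKM in Carmil3-KO and 57.7, 55.1 and 49.2 FPKM in WT libraries, with overlapping groups. The mitochondrial ribosome helicases Ddx28 and Dhx30 had log2 changes of -0.20 (95% interval -0.43 to 0.03) and -0.02 (-0.21 to 0.17) and did not pass. Ddx11, a DNA helicase of sister chromatid cohesion, measured 17.5, 17.6 and 15 FPKM in Carmil3-KO and 15.1, 14.7 and 13.9 FPKM in WT libraries (log2 change 0.18, limma adjusted p = 0.0777). Without Carmil3-KO replicate 3 Ddx11 passed, with an adjusted p of 0.00873 and a log2 change of 0.25. Ddx59 (log2 change -0.16) and Dhx40 (0.0034) did not pass.

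The direction of most called genes, members and others alike, was shared by the median of the genes beside them on the chromosome. The comparison was the median log2 change of up to 40 tested genes, the 20 nearest on each side of a member. Of the 16 members that fell 12 had neighbours with a median below 0 and 4 had neighbours with a median above 0, and all 3 risen members had neighbours with a median above 0; over all genes the neighbours shared the sign for 74.3% of those that fell and 76.1% of those that rose. Chromosome 8 held 6 tested members, Ddx39, Dhx38, Ddx19a, Ddx19b, Ddx49 and Ddx28, of which 4 fell, with a median log2 change of -0.30. The other 611 tested genes of chromosome 8 had a median log2 change of -0.21, and 45.8% of them fell. Chromosome 12, with Ddx1 and Ddx24, had a median of -0.17 over 391 other genes, of which 41.2% fell. On the side of the rises, Ddx47 on chromosome 6 and Ddx20 and Dhx36 on chromosome 3 lay among 522 and 550 other genes with medians of 0.16 and 0.10. Chromosomes 13 and 7 went the other way. On chromosome 13, 2 of 3 tested members fell, with a member median of -0.28 and a median of 0.05 over 398 other genes. On chromosome 7, 1 of 2 fell, with a member median of -0.26 and a median of 0.13 over 794 other genes.

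With the neighbours' median log2 change subtracted from a gene's Carmil3-KO values, a centring that treats this median as free of error, 10 members were lower (13.5% of all tested genes were) and 1 was higher (13.0% of all tested genes were), with a median member log2 change of -0.08. Of the 19 members called before, 9 (47.4%) remained called in the same direction, where 61.1% of all called genes did. All 9 were lower: Ddx39, Dhx38, Dhx32, Ddx52, Dhx33, Dhx29, Ddx41, Ddx27 and Dhx15. Ddx39 kept a log2 change of -0.34 relative to its neighbours at -0.25 (limma adjusted p = 0.00213), and Dhx38 one of -0.24 relative to neighbours also at -0.25 (limma adjusted p = 0.0230). For Dhx32, Dhx29 and Ddx41 the neighbours were higher, at 0.08, 0.11 and 0.09, and the centred log2 changes of these genes were larger, at -0.51, -0.40 and -0.36. In contrast Ddx18, Ddx1, Ddx19a and Ddx19b lay close to their neighbours, with centred log2 changes of -0.08, -0.07, -0.02 and -0.05 that did not pass. None of Ddx47, Dhx36 and Ddx20 passed after centring, with 0.13, 0.08 and 0.04. The members that passed only after centring were Dhx9, at 0.35 above neighbours with a median of -0.32 (limma adjusted p = 0.00772), and Ddx46, a spliceosomal helicase, at -0.21 (limma adjusted p = 0.0306). What makes neighbouring genes move together was not tested.

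**Figure D4:**
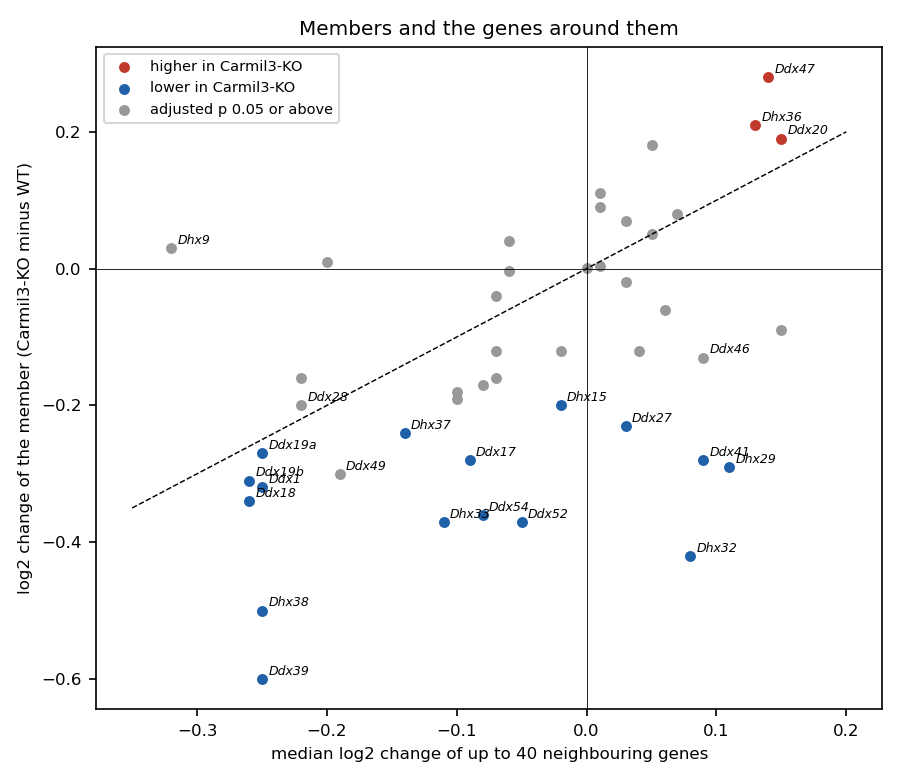
Log2 change of each tested member (vertical axis) against the median log2 change of up to 40 neighbouring tested genes (horizontal axis), coloured by call; the dashed line marks equal values. Ddx19a, Ddx19b, Ddx1 and Ddx18 lie near the line, Dhx32, Dhx29, Ddx41 and Ddx39 lie farthest below it, and Dhx9 lies above it.

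Relatives and partners of the family were read from lists of genes outside the symbol rule. Of 17 tested RNA helicases of other names 4 fell and 1 rose, where 18.7% of all tested genes fell and 16.9% rose, with a median log2 change of -0.10. The count of falls was 0 without WT replicate 1 or WT replicate 2 and 2 without WT replicate 3. Over all 11171 genes 1358, 1718 and 1602 fell without WT replicates 1, 2 and 3. Ythdc2 averaged 2.27 ± 0.343 FPKM in Carmil3-KO and 3.19 ± 0.240 FPKM in WT cells, Dicer1, the microRNA-processing nuclease, 6.26 ± 0.895 FPKM in Carmil3-KO and 7.89 ± 0.575 FPKM in WT cells, and Ascc3 2.54 ± 0.295 FPKM in Carmil3-KO and 3.34 ± 0.0814 FPKM in WT cells (SD, n = 3 each), with adjusted p of 0.0167, 0.0422 and 0.0185 by limma. Without Carmil3-KO replicate 3 the log2 change of Dicer1 was -0.19, against -0.30 with it, and its call was lost (limma adjusted p = 0.0611); it was also lost without any WT library, without the expression filter, without trend and robust, and after centring. The call on Ythdc2 was lost without WT replicate 1 or 2, without the filter and after centring, and that on Ascc3 without WT replicate 1 or 2. Mov10 rose to 15.1 ± 0.951 FPKM in Carmil3-KO, against 12.8 ± 1.05 FPKM in WT cells (adjusted p = 0.0438, limma, n = 3 each), a call lost without either of Carmil3-KO replicates 1 and 2, either of WT replicates 1 and 2, the expression filter, or the trend and robust settings, with the replicate block (limma adjusted p = 0.0743), and after centring. Eif4a1, the helicase of the cap-binding complex and the most abundant of these genes, averaged 413 ± 17.4 FPKM in Carmil3-KO and 456 ± 3.89 FPKM in WT cells and did not pass (adjusted p = 0.0843, limma, n = 3 each; named after its value was seen). Of 37 tested partner genes 7 fell and 2 rose, a share of falls near the 18.7% of all tested genes and of rises below the 16.9%, with a median log2 change of -0.06. Of these partners 3 fell without WT replicate 1 and 4 without WT replicate 2 or 3, beside the counts over all genes just given. After centring on neighbours 3 fell, where 1511 of all 11166 genes did. Cnot1, the scaffold of the deadenylase that recruits Ddx6, averaged 18.2 ± 2.27 FPKM in Carmil3-KO and 24.3 ± 1.04 FPKM in WT cells (log2 change -0.41, limma adjusted p = 0.00757), and did not pass after centring (limma adjusted p = 0.275). Gemin5, of the SMN complex, averaged 14.6 ± 2.06 FPKM in Carmil3-KO and 18.6 ± 0.664 FPKM in WT cells (log2 change -0.34, limma adjusted p = 0.0235). Without Carmil3-KO replicate 3 the log2 change of Gemin5 was -0.22, and its call was lost without any WT library, without the filter and after centring (limma adjusted p = 0.0622). Nkrf, a G-patch partner of Dhx15, averaged 6.96 ± 0.224 FPKM in Carmil3-KO and 9.64 ± 0.946 FPKM in WT cells (log2 change -0.41, limma adjusted p = 0.00294). Pdcd4, an inhibitor of eIF4A helicases, rose to 10.6 ± 0.494 FPKM in Carmil3-KO, against 7.75 ± 0.527 FPKM in WT cells (log2 change 0.41, limma adjusted p = 0.0019). Rbm8a, of the exon junction complex, averaged 33.5 ± 3.47 FPKM in Carmil3-KO and 28.6 ± 0.540 FPKM in WT cells (log2 change 0.21, limma adjusted p = 0.0484). The log2 change of Rbm8a was 0.13 without Carmil3-KO replicate 3, and its call held in 8 of 16 alternatives, the 1.5-fold test not counted, and was lost after centring (limma adjusted p = 0.160). Gle1, the activator of Ddx19 proteins, named after its value was seen, averaged 10.2 ± 0.440 FPKM in Carmil3-KO and 12.7 ± 0.381 FPKM in WT cells (log2 change -0.29, limma adjusted p = 0.00496). Of 3 tested genes of innate RNA sensing 1 fell, Ifih1, named after its value was seen, with 0.752 ± 0.0323 FPKM in Carmil3-KO and 1.12 ± 0.0214 FPKM in WT cells (log2 change -0.27, limma adjusted p = 0.0225). The call on Ifih1 was lost without Carmil3-KO replicate 1 or 2, without any WT library, with quantile normalization, with the replicate block and after centring. Of the sensors that the symbol rule leaves out, Ddx58 averaged 4.22 ± 0.263 FPKM in Carmil3-KO and 4.01 ± 0.162 FPKM in WT cells and did not pass, and Dhx58 averaged 0.698 ± 0.106 FPKM in Carmil3-KO and 0.325 ± 0.0673 FPKM in WT cells, below the filter (SD, n = 3 each).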

How the data were processed

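RNA of 6 libraries was sequenced. The authors deposited 1 table of FPKM values, a unit read from the values. Per the submitters' processing notes, the tools were HTSeq 0.6.0, TopHat2 2.0.12, TopHat, Bowtie2, Bowtie and CASAVA, with mm10. Their roles and the strand setting are not stated, so opposite-strand overlaps cannot be told apart. GENCODE M21 (GRCm38) named 23587 rows. Read totals came from its exon lengths: 91.9% to 92.2% of values up to 500 reads were whole within 0.02. Reads over listed genes summed to 108.7% to 109.1% of these totals, so depths are approximate. Chi-square per degree of freedom between libraries of a group was 3.03 to 19.2, above sampling noise.

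limma 3.58.1 (R 4.3.3; eBayes, trended and robust) tested log2(FPKM + 1) of 11171 genes, with Benjamini-Hochberg adjustment over all of them and calls at 0.05. This scale understates changes of low genes. Centring subtracted from the Carmil3-KO values of a gene the median log2 change over 20 tested genes to either side. Python 3.11.15, pandas 2.3.3, scipy 1.17.1 and matplotlib 3.10.9 did the rest. Simulated data had 10887 genes and 1 dispersion, taken from the WT libraries, and only genes above a read minimum were changed. In them 72% of 1.25-fold, 95.9% of 1.5-fold and 100% of 2-fold changes were recovered, with 12 false calls. Chi-square per degree of freedom was 3.4 to 10.6 between WT libraries and 3.03 to 19.2 between Carmil3-KO libraries. The simulation leaves out this wider spread, so its recovery and false calls do not carry over to these data.

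The members, roles and lists were chosen with earlier results of these data known. Called members, the 10 highest and paralog pairs were given by library, and list genes up to 3 per direction by size. Alternatives were other pseudocounts, filters, scalings, variance settings, a 1.5-fold test, a replicate block, each library left out, centring, and limma-voom on recovered reads.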

Additional observations from a re-analysis of the deposited data

How the results depend on the processing

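The 16 fallen and 3 risen members became 10 and 1 after centring on neighbours and 0 and 0 against a 1.5-fold change, where the counts over all genes were 193 lower and 118 higher. Leaving out 1 library gave 11 to 15 fallen and 0 to 5 risen members, and 1358 to 2218 lower and 1182 to 2041 higher genes, with the lowest of both counts of genes without WT replicate 1. Lower members without overlap were 17 after centring, and 26 to 28 with 1 library left out. Higher ones were 4 to 7 with 1 library left out. The shares of all tested genes without overlap under these settings were not counted. With fewer libraries non-overlap is easier to reach for any gene, so these counts do not measure stability. The median member log2 change was -0.11 with a pseudocount of 5, -0.13 without the filter, -0.08 after centring and -0.15 to -0.14 with 1 library left out. For RNA helicases of other names, risen genes were 0 without the filter, without trend and robust, with the replicate block, after centring and in the 1.5-fold test (0 to 3 with 1 library left out); fallen genes were 1 without the filter, 1 after centring, 0 in the 1.5-fold test and 0 to 5 with 1 library left out. Risen partners were 1 without the filter, 1 without trend and robust, 0 in the 1.5-fold test and 1 to 4 with 1 library left out; fallen partners were 3 without the filter, 3 after centring, 0 in the 1.5-fold test and 3 to 8 with 1 library left out. Over all genes 1862 of 23644 fell and 1538 rose without the filter, and 1511 of 11166 fell and 1456 rose after centring. The cause of the differences between settings was not tested.

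Same-numbered libraries had correlated deviations of 0.076, 0.255 and 0.106, not above 0.1 in every pair, and Carmil3-KO replicate 1 correlated best with WT replicate 3, so the numbers were not taken as pairs. With the replicate block 16 members fell and 4 rose, where 2127 of all 11171 genes tested fell and 1900 rose. Dhx37 was lost, and Ddx3x (adjusted p = 0.0333) and Ddx11 (0.0450) would pass by limma.

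Signs changed only for members that were not called. After centring these were Ddx28 (0.01), Ddx59 (0.06), Ddx51 (0.04), Ddx42 (0.06), Dhx40 (-0.01) and Dhx57 (-0.003). Ddx42 was 0.01 with median-of-ratios rescaling, Ddx5 -0.02 with quantile normalization and Ddx10 -0.001 with limma-voom. With 1 library left out Ddx10 ranged from -0.04 to 0.06, Ddx42 from -0.03 to 0.02, Ddx51 from -0.08 to 0.04, Ddx55 from -0.05 to 0.05, Dhx30 from -0.10 to 0.04, Dhx34 from -0.14 to 0.002, Dhx40 from -0.05 to 0.03 and Dhx9 from -0.03 to 0.08. Depth limits Ddx60 and Dhx58os, which were too low to test.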
